A study of Xenopus laevis with 16 samples.

Results

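The keratin genes and the genes of desmosomes were followed through 5 groups of Xenopus laevis animal caps on Affymetrix arrays. Every probe set that the platform annotation ties to exactly 1 gene was taken if that gene is a numbered keratin (krt) or encodes desmoplakin (dsp), plakoglobin (jup), periplakin (ppl), envoplakin (evpl), a desmocollin (dsc), a desmoglein (dsg) or a plakophilin (pkp). The rule did not use any measured value. It found 57 probe sets among 32539 on the array, of which 15495 carry 1 gene symbol. They are 40 keratin probe sets of 29 genes and 17 desmosome probe sets of 12 genes, 41 genes in all, and no probe set carries a desmoglein symbol. Xenopus laevis is allotetraploid and has a long (L) and a short (S) copy of many genes, and 12 of the gene names are present in both copies.

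Keratins are the intermediate filaments of epithelial cells. A filament is built from pairs of 1 type I and 1 type II keratin, and the keratin repertoire of a cell follows its kind of epithelium. krt8 (type II) and krt18 (type I) form the pair of simple epithelia and are present from early in frog development, while krt12.4 is in wide use as a marker of the embryonic epidermis of Xenopus. Desmosomes anchor these filaments at the plasma membrane. Their desmocollin and desmoglein cadherins span the membrane, plakoglobin and the plakophilins (armadillo-repeat proteins) bind the cadherins' tails, and desmoplakin links these to keratin. Envoplakin and periplakin are relatives of desmoplakin that also bind keratin and are known in mammals from the cornified envelope of the skin.

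Animal caps are the roof of the blastula, cut out before gastrulation, and form epidermis when left alone. Embryos of 2 to 4 cells were injected with inducible Pax3-GR, alone or together with Zic1-GR, transcription factors of the neural plate border fused to a hormone-binding domain that keeps them inactive until dexamethasone is added. Cycloheximide (Chx), a blocker of protein synthesis, was given to some caps at 0.1 mg/ml for 30 min at 23 °C before dexamethasone and was kept on with it for 2 h, until stage 12. The study asked which genes are targets of the pair, and the drug serves to find responses that need no new protein.

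The control caps had no injection, no dexamethasone and no cycloheximide. Pax3 caps were injected with Pax3-GR and given dexamethasone, Pax3/Zic1 caps received both constructs and dexamethasone, and the Pax3 Chx and Pax3/Zic1 Chx caps were the same with cycloheximide added before and during the hormone. Injection and dexamethasone therefore cannot be told apart from the factors in any comparison with the control caps, and the drug cannot be told apart from them where drug-treated caps are set against control caps. No group had the drug, the hormone or an injection alone. Each group had 3 biological replicates, numbered 1 to 3 in every group, and values below are listed in that order. Samples that share a number moved together across the array, so beside the fit without it, a second fit that blocks on the number is reported beside it. Pax3/Zic1 replicate 3 correlated less well with its own number (r 0.43 to 0.51) than any other sample did (r of 0.60 or more), and some differences below are given with and without it. Values are log2 expression as deposited, and only values of the same probe set are compared.

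Control caps had some of the listed markers of epidermis and non-neural ectoderm, and the labels name only animal caps. Mean log2 values in control caps were 10.7 for epcam.L, 11.4 for epcam.S, 8.24 for cdh1.S (E-cadherin) and 7.95 for itln1.L (intelectin of the epidermal surface). tp63.L (1.77), tp63.S (3.04) and itln2.L (1.65) were low. Averaged over the 20 measured genes of the epidermis list, the log2 level was 7.95 to 8.42 in control caps and 7.05 to 7.94 in Pax3/Zic1 Chx caps. These groups were only just apart (lowest control 7.9475, highest Pax3/Zic1 Chx 7.9429). Pax3/Zic1 caps without the drug, at 7.26 to 7.51, were also below control, while Pax3 caps (7.25 to 7.98) and Pax3 Chx caps (7.47 to 8.11) overlapped it.

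Of the 40 keratin probe sets, 18 probe sets of 18 genes stayed below a log2 value of 3 in all samples, and 1 of the 4 ppl.L probe sets did as well. These 19 ranged from 1.06 to 2.98. The file gives no detection call, so whether these genes were expressed cannot be told. The 22 keratin probe sets that reached 3 in some sample belong to 12 genes, namely krt12.4 (both copies), krt12.5.S, krt70 (both copies), krt7.L, krt8.1.S, krt18.1 (both copies), krt18.3.L and krt19 (both copies). These are the epidermal krt12 pair, krt70, krt7, krt19 and the simple-epithelium keratins.

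Of the 57 keratin and desmosome probe sets, 17 of 12 genes fell in at least 1 comparison, and 40 were called in none (28 with the replicate number in the fit). Most of the calls came in caps that also had cycloheximide. Against control caps, limma's moderated test called 0 of the 57 probe sets in Pax3 caps, 1 in Pax3/Zic1 caps, 10 in Pax3 Chx caps and 17 in Pax3/Zic1 Chx caps at a Benjamini-Hochberg adjusted p of 0.05 over all probe sets of the array. Every one of these calls was lower. For comparison, 0.286% of all probe sets were called in either direction in Pax3 caps (0.0645% lower), 0.492% in Pax3/Zic1 caps (0.203% lower), 2.53% in Pax3 Chx caps (1.24% lower) and 4.56% in Pax3/Zic1 Chx caps (2.35% lower). In whole caps, fewer cells of a type and less RNA per cell cannot be told apart.

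With the replicate number in the fit, limma called 2, 5, 25 and 24 members in the same order of groups, of which all but 1 (dsc3.S, higher in Pax3/Zic1 Chx caps) were lower. The share of all probe sets called lower rose too, to 1.3%, 2.18%, 6.99% and 9.78%. The corresponding shares in either direction were 2.14%, 4.35%, 14.9% and 18.9%, and 9.15% were called higher in Pax3/Zic1 Chx caps. The 0 calls in Pax3 caps without the number compare with 7 members at an unadjusted p under 0.05, all lower. The 2 calls with it compare with 14, also all lower. The share of all probe sets under an unadjusted p of 0.05 was not counted, here or below.

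The members' median difference from control was -0.12 in Pax3 caps, -0.16 in Pax3/Zic1 caps, -0.45 in Pax3 Chx caps and -0.33 in Pax3/Zic1 Chx caps, while the median of all probe sets was 0.02, 0.0024, -0.03 and -0.03. The groups did not overlap, with the injected caps lower, for 16, 12, 30 and 24 members in that order. Over all probe sets that share was 4.14%, 4.59%, 11.2% and 12.3%. The injected caps were higher without overlap for 0, 0, 1 and 1 members, and for 3.82%, 4.54%, 8.35% and 8.29% of all probe sets. The map of differences shows where the lower values lie, beside many keratins with differences near 0. They are in krt12.4, krt12.5, krt70, krt7, krt8.1, krt18.1.L, krt18.3.L, dsp, evpl, ppl and pkp3.S. Small falls were also called in jup.S and krt12.2.S.

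With only the 2 groups of a comparison in the fit, and so fewer samples, 7 of the 10 calls in Pax3 Chx caps and 5 of the 17 in Pax3/Zic1 Chx caps passed. That fit called 467 and 617 of the 32539 probe sets in either direction. The 5 in Pax3/Zic1 Chx caps are krt12.4.L, krt7.L (Xl2.1642.6.A1_a_at), krt8.1.S (Xl2.4511.1.A1_s_at and Xl2.45542.1.S1_at) and dsp.S. In Pax3/Zic1 Chx caps the adjusted p became 0.0502 for krt12.5.S, 0.0689 for krt12.4.S, 0.0982 for krt70.L, 0.182 for krt70.S, 0.0566 for krt18.1.L, 0.123 for dsp.L, 0.112 for jup.S and 0.109 for krt12.2.S. It became 0.0536 to 0.212 for the other 3 krt7.L probe sets called there and 0.0559 for the last of krt8.1.S. In Pax3 Chx caps jup.S (0.0915) and 2 krt7.L probe sets (0.0803 and 0.109) lost their calls.

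**Figure D1:**
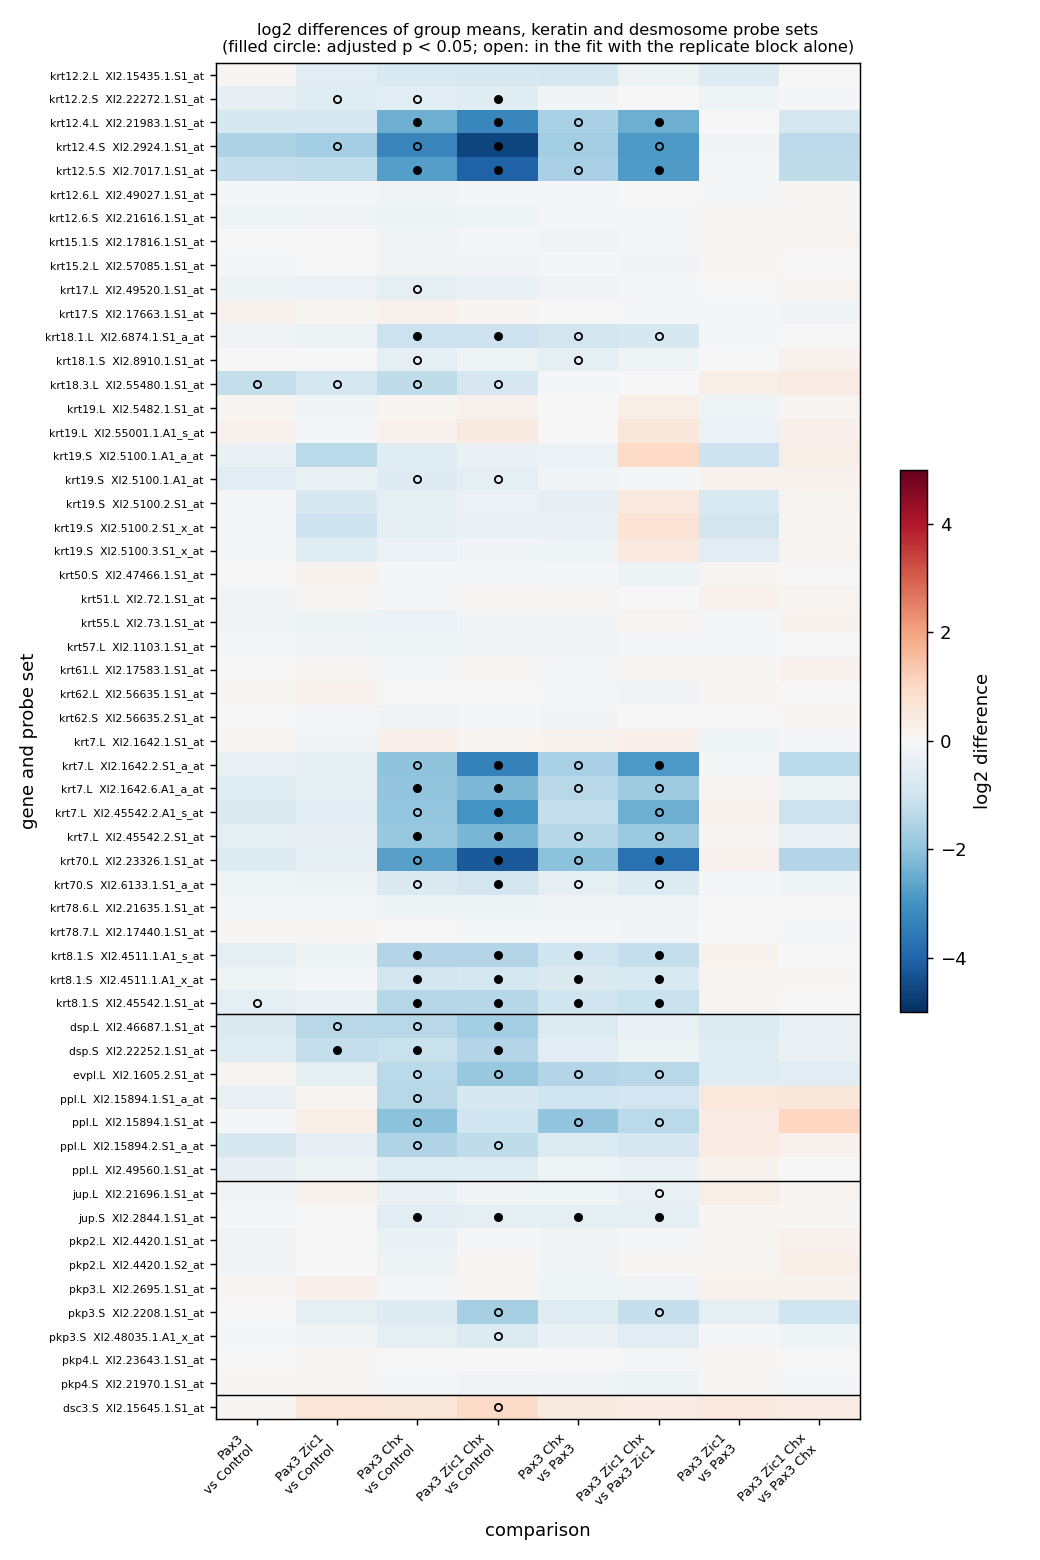
Log2 differences of group means (colour, blue lower and red higher in the first-named group) for the 57 probe sets (rows) in 8 comparisons (columns), with filled circles for an adjusted p under 0.05 without the replicate number in the fit and open circles for calls only with it. The 40 filled circles all lie on blue cells.

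The largest fall of any member was in the S copy of the epidermal keratin krt12.4. krt12.4.S read 9.75, 10.50 and 10.21 in control caps, 7.60, 9.72 and 8.47 in Pax3 caps and 8.02, 9.31 and 8.03 in Pax3/Zic1 caps. Under cycloheximide, krt12.4.S read 6.16, 8.20 and 6.24 in Pax3 Chx caps and 4.38, 7.68 and 4.64 in Pax3/Zic1 Chx caps. All 12 injected samples were below the lowest control, and in each injected group replicate 2 was the highest. The difference from control was -4.59 ± 0.85 in Pax3/Zic1 Chx caps (24.1-fold lower, limma adjusted p = 0.00842), and adjusted p stayed under 0.05 without any 1 of the 6 libraries of the comparison (highest 0.0429). In Pax3 Chx caps it was -3.29 ± 0.85 (adjusted p = 0.0691, and 0.000433 with the replicate number in the fit), and in Pax3/Zic1 caps -1.70 ± 0.85 (adjusted p = 0.788, with the number 0.0393). In Pax3 caps the difference of -1.56 ± 0.85 did not pass either fit (adjusted p = 1.00 and 0.0890).

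The L copy of this gene, krt12.4.L, started at 10.75, 11.21 and 11.34 in control caps. It read 9.66, 10.71 and 10.51 in Pax3 caps and 9.56, 10.60 and 10.65 in Pax3/Zic1 caps. Under cycloheximide, krt12.4.L read 7.96, 9.05 and 9.00 in Pax3 Chx caps and 7.13, 8.99 and 7.36 in Pax3/Zic1 Chx caps. Again no injected group overlapped the control caps, and the drug-treated caps lay below all untreated ones. It fell by 2.43 ± 0.50 in Pax3 Chx caps (5.40-fold, adjusted p = 0.0219), a call that was lost without Pax3 Chx replicates 1 or 3 or control replicates 2 or 3 (adjusted p up to 0.102). In Pax3/Zic1 Chx caps it fell by 3.27 ± 0.50 (9.68-fold, adjusted p = 0.00266), and adjusted p stayed under 0.05 without any 1 of the 6 libraries of the comparison (highest 0.0154).

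The neighbouring gene krt12.5.S, another type I keratin, followed the same course. It read 11.07, 11.21 and 11.35 in control caps, 9.47, 10.71 and 10.00 in Pax3 caps and 9.87, 10.40 and 9.69 in Pax3/Zic1 caps. Under cycloheximide, krt12.5.S read 7.99, 9.12 and 8.21 in Pax3 Chx caps and 5.73, 8.63 and 7.10 in Pax3/Zic1 Chx caps. Control caps were the highest group without overlap, the 2 groups without drug lay in between, and the drug-treated caps lay below both. The fall from control was 2.77 ± 0.58 in Pax3 Chx caps (adjusted p = 0.0251) and 4.06 ± 0.58 in Pax3/Zic1 Chx caps (16.7-fold, adjusted p = 0.00175). The first call was lost without control replicates 1, 2 or 3 or Pax3 Chx replicates 1 or 3 (adjusted p up to 0.109), while for the second adjusted p stayed under 0.05 without any 1 of the 6 libraries of the comparison (highest 0.00980).

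krt70, also type I, fell in both copies. krt70.L read 9.82, 10.39 and 10.56 in control caps, 8.99, 10.15 and 9.54 in Pax3 caps and 9.24, 9.99 and 10.08 in Pax3/Zic1 caps. Under cycloheximide, krt70.L read 6.52, 8.24 and 7.83 in Pax3 Chx caps and 4.03, 7.93 and 6.18 in Pax3/Zic1 Chx caps. The untreated groups overlapped the control caps and the drug-treated groups did not. Its difference from control was -4.21 ± 0.77 in Pax3/Zic1 Chx caps (18.5-fold lower, adjusted p = 0.00764), where adjusted p stayed under 0.05 without any 1 of the 6 libraries of the comparison (highest 0.0356). In Pax3 Chx caps it was -2.73 ± 0.77 (adjusted p = 0.0977, and 0.00296 with the replicate number in the fit).

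krt70.S stayed high in every group. It read 12.12, 12.30 and 12.53 in control caps, 11.92, 12.16 and 12.28 in Pax3 caps and 11.94, 12.20 and 12.06 in Pax3/Zic1 caps. Under cycloheximide, krt70.S read 11.29, 11.78 and 11.77 in Pax3 Chx caps and 10.82, 11.70 and 11.62 in Pax3/Zic1 Chx caps. The drug-treated caps were again below all others. It fell by 0.94 ± 0.22 in Pax3/Zic1 Chx caps (adjusted p = 0.0336), a call that was lost without Pax3/Zic1 Chx replicates 1 or 3 or control replicates 1, 2 or 3 (adjusted p up to 0.130). In Pax3 Chx caps the difference was -0.70 ± 0.22 (adjusted p = 0.161, and 0.00512 with the replicate number in the fit). Whether the copies differ in their fall was not tested, since each is read by its own probes.

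**Figure D2:**
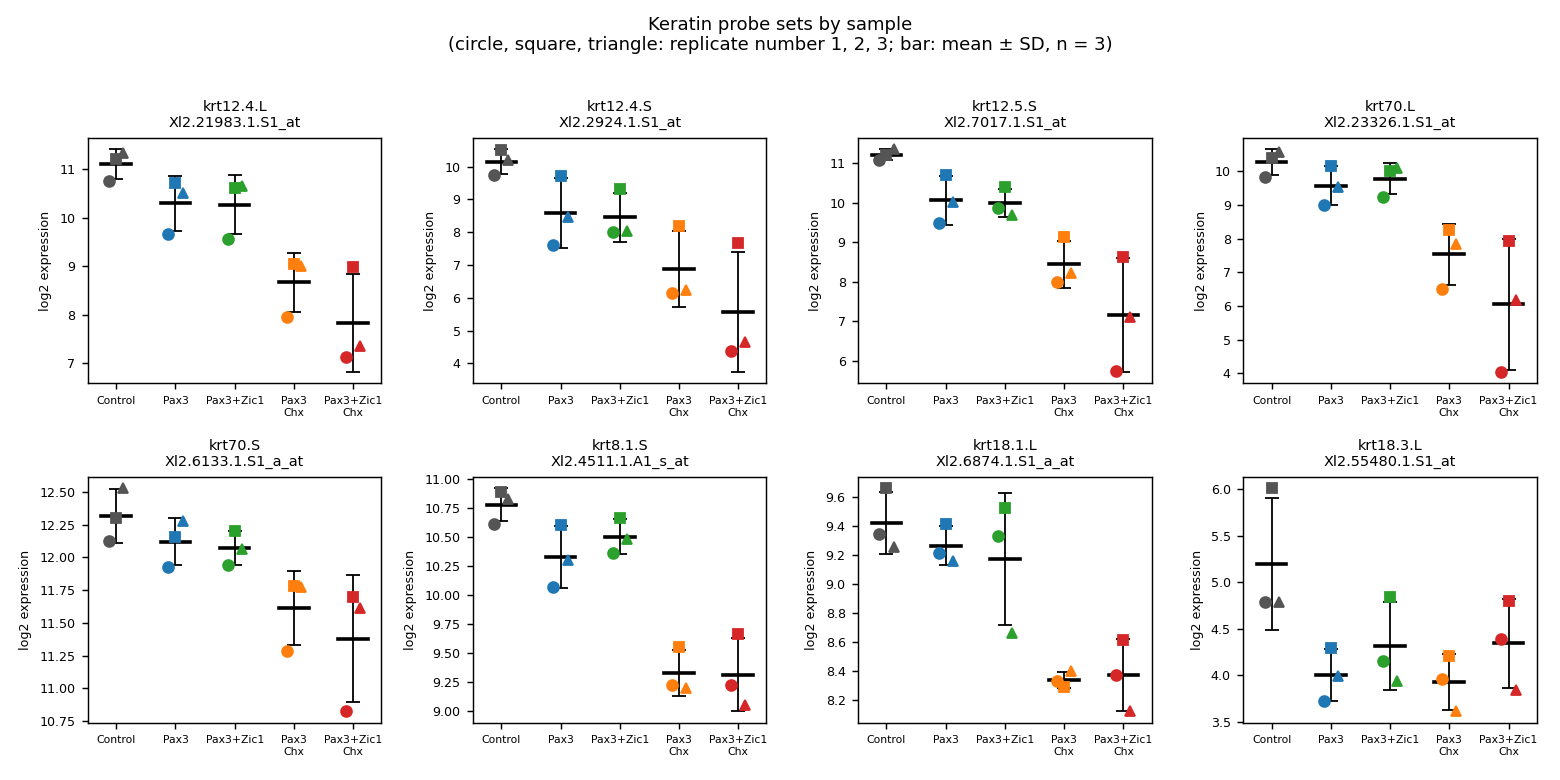
Log2 expression (vertical axis, with its own range in each panel) of 8 keratin probe sets in the 5 groups (horizontal axis); circles, squares and triangles are replicate numbers 1, 2 and 3, and bars are mean ± SD (n = 3). In krt12.4.L, krt12.5.S, krt70.L, krt70.S, krt8.1.S and krt18.1.L the 6 drug-treated caps lie below all samples without the drug.

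The simple-epithelium pair krt8 and krt18 fell as well. krt8.1.S is read by 3 probe sets, and Xl2.45542.1.S1_at read 10.61, 10.92 and 10.78 in control caps, 10.08, 10.61 and 10.29 in Pax3 caps and 10.30, 10.68 and 10.35 in Pax3/Zic1 caps. Under cycloheximide, Xl2.45542.1.S1_at read 9.28, 9.50 and 9.24 in Pax3 Chx caps and 9.22, 9.60 and 9.18 in Pax3/Zic1 Chx caps. The 6 drug-treated samples lay within a narrow span, under the lowest sample of any other group. The fall was 1.43 ± 0.17 in Pax3 Chx caps (adjusted p = 0.00114) and 1.44 ± 0.17 in Pax3/Zic1 Chx caps (adjusted p = 0.000600). Both calls held without any 1 library, with adjusted p of at most 0.00778 and 0.00421. In Pax3 caps without the drug the difference was -0.44 ± 0.17 (adjusted p = 0.848) and passed only with the replicate number in the fit (adjusted p = 0.0250).

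The other 2 krt8.1.S probe sets have name endings that Affymetrix gives to probes shared between transcripts, so their values are open to signal from related keratins. Xl2.4511.1.A1_s_at read 10.62, 10.89 and 10.83 in control caps, 10.07, 10.61 and 10.30 in Pax3 caps and 10.37, 10.67 and 10.48 in Pax3/Zic1 caps. Under cycloheximide, Xl2.4511.1.A1_s_at read 9.22, 9.55 and 9.19 in Pax3 Chx caps and 9.22, 9.66 and 9.05 in Pax3/Zic1 Chx caps, and it fell by 1.46 and 1.47 ± 0.18 against control (adjusted p = 0.00152 and 0.000865). This is nearly the size seen with the first probe set.

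Xl2.4511.1.A1_x_at, from the same transcript cluster, read 7.51, 7.85 and 7.71 in control caps, 7.28, 7.58 and 7.53 in Pax3 caps and 7.42, 7.74 and 7.61 in Pax3/Zic1 caps. Under cycloheximide, Xl2.4511.1.A1_x_at read 6.62, 6.84 and 6.81 in Pax3 Chx caps and 6.65, 6.97 and 6.83 in Pax3/Zic1 Chx caps. It too separated drug-treated from untreated caps, with smaller falls of 0.94 and 0.87 ± 0.14 (adjusted p = 0.00397 and 0.00355).

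krt18.1.L, the type I partner, read 9.35, 9.66 and 9.25 in control caps, 9.22, 9.42 and 9.16 in Pax3 caps and 9.34, 9.53 and 8.66 in Pax3/Zic1 caps. Under cycloheximide, krt18.1.L read 8.33, 8.29 and 8.40 in Pax3 Chx caps and 8.38, 8.62 and 8.12 in Pax3/Zic1 Chx caps. Pax3/Zic1 replicate 3 was the lowest of the untreated samples and still above all 6 drug-treated ones. The fall was 1.08 ± 0.21 in Pax3 Chx caps (adjusted p = 0.0155) and 1.05 ± 0.21 in Pax3/Zic1 Chx caps (adjusted p = 0.0123). The first call was lost without Pax3 Chx replicates 1 or 2 or control replicate 2 (adjusted p up to 0.0712), and the second was lost without control replicate 2 or Pax3/Zic1 Chx replicate 3 (adjusted p up to 0.0579).

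Its S copy, krt18.1.S, ranged from 7.47 to 8.38. Its fall of 0.46 ± 0.19 in Pax3 Chx caps (adjusted p = 0.334) passed only with the replicate number in the fit (adjusted p = 0.0332). In Pax3/Zic1 Chx caps its difference was -0.23, with a 95% interval of -0.66 to 0.19.

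krt18.3.L, a further type I keratin of this family, had lower values already without the drug. It read 4.78, 6.01 and 4.79 in control caps, 3.73, 4.29 and 3.99 in Pax3 caps and 4.15, 4.84 and 3.94 in Pax3/Zic1 caps. Under cycloheximide, krt18.3.L read 3.96, 4.21 and 3.61 in Pax3 Chx caps and 4.39, 4.80 and 3.84 in Pax3/Zic1 Chx caps. All Pax3 and Pax3 Chx samples were below the lowest control, while in the groups with Zic1 replicate 2 reached above it. With the replicate number in the fit it fell in all 4 groups, by 1.19 ± 0.18 in Pax3 caps (adjusted p = 0.00571), 0.88 in Pax3/Zic1 caps (0.0198), 1.27 in Pax3 Chx caps (0.00105) and 0.85 in Pax3/Zic1 Chx caps (0.00755). None of these passed without it (adjusted p = 0.425, 0.586, 0.102 and 0.260). Between drug-treated and untreated Pax3 caps krt18.3.L differed by -0.077, with a 95% interval of -0.86 to 0.70.

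krt7.L, a type II keratin, is read by 5 probe sets, and these did not give 1 answer. The probe set Xl2.1642.2.S1_a_at read 11.38, 11.55 and 11.65 in control caps, 10.83, 11.31 and 11.29 in Pax3 caps and 10.79, 11.13 and 11.23 in Pax3/Zic1 caps. Under cycloheximide, Xl2.1642.2.S1_a_at read 8.48, 10.10 and 9.92 in Pax3 Chx caps and 6.81, 9.21 and 8.46 in Pax3/Zic1 Chx caps. Each injected group was below control without overlap, and the drug-treated caps were lowest. It fell by 3.37 ± 0.52 in Pax3/Zic1 Chx caps (10.3-fold, adjusted p = 0.00313), where adjusted p stayed under 0.05 without any 1 of the 6 libraries of the comparison (highest 0.0159). In Pax3 Chx caps it was -2.03 ± 0.52 (adjusted p = 0.0689, and 0.00273 with the replicate number in the fit).

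A second probe set of the same gene, Xl2.1642.6.A1_a_at, read 5.88, 6.10 and 6.32 in control caps, 4.84, 5.78 and 5.85 in Pax3 caps and 5.11, 5.98 and 5.77 in Pax3/Zic1 caps. Under cycloheximide, Xl2.1642.6.A1_a_at read 3.11, 4.67 and 4.57 in Pax3 Chx caps and 3.39, 4.17 and 3.97 in Pax3/Zic1 Chx caps. It fell by 1.99 ± 0.41 (adjusted p = 0.0242) and 2.26 (adjusted p = 0.00764) against control. The first call was lost without control replicates 1, 2 or 3 or Pax3 Chx replicate 1 (adjusted p up to 0.102), and the second held without any 1 library (adjusted p at most 0.0366).

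Xl2.45542.2.A1_s_at read 11.69, 11.90 and 12.09 in control caps, 10.55, 11.44 and 11.48 in Pax3 caps and 11.03, 11.55 and 11.40 in Pax3/Zic1 caps. Under cycloheximide, Xl2.45542.2.A1_s_at read 8.69, 10.61 and 10.57 in Pax3 Chx caps and 6.64, 10.29 and 9.73 in Pax3/Zic1 Chx caps, replicate 1 being far below the others. It fell by 3.00 ± 0.78 in Pax3/Zic1 Chx caps (adjusted p = 0.0485), a call that was lost without Pax3/Zic1 Chx replicates 1 or 3 or control replicates 1, 2 or 3 (adjusted p up to 0.140). In Pax3 Chx caps the difference was -1.94 (adjusted p = 0.301, and 0.0273 with the replicate number in the fit).

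The next, Xl2.45542.2.S1_at, read 5.73, 5.90 and 6.17 in control caps, 4.81, 5.67 and 5.88 in Pax3 caps and 5.16, 5.74 and 5.63 in Pax3/Zic1 caps. Under cycloheximide, Xl2.45542.2.S1_at read 3.19, 4.50 and 4.38 in Pax3 Chx caps and 2.65, 4.25 and 4.05 in Pax3/Zic1 Chx caps, below all untreated samples. It fell by 1.91 ± 0.44 (adjusted p = 0.0435) and 2.28 (adjusted p = 0.0115), and the first of these calls was lost without Pax3 Chx replicates 1, 2 or 3 or control replicates 1, 2 or 3 (adjusted p up to 0.177). The second held without any 1 library (adjusted p at most 0.0499). The names of both last probe sets share a cluster number with a krt8.1.S probe set, and whether their probes also bind krt8.1 RNA was not tested.

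The fifth krt7.L probe set, Xl2.1642.1.S1_at, did not fall in drug-treated caps. It read 8.78, 8.72 and 8.81 in control caps, 9.13, 8.98 and 8.91 in Pax3 Chx caps and 8.99, 8.89 and 8.80 in Pax3/Zic1 Chx caps. The 2 arrays of Pax3/Zic1 replicate 2 read 8.63 and 8.45, below these drug-treated samples. Here the drug-treated Pax3 caps lay above control, and the difference in Pax3/Zic1 Chx caps was 0.13 with a 95% interval of -0.091 to 0.34, which leaves out a fall of the size seen with the other 4. What each probe set reads of krt7.L was not analysed here.

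**Figure D3:**
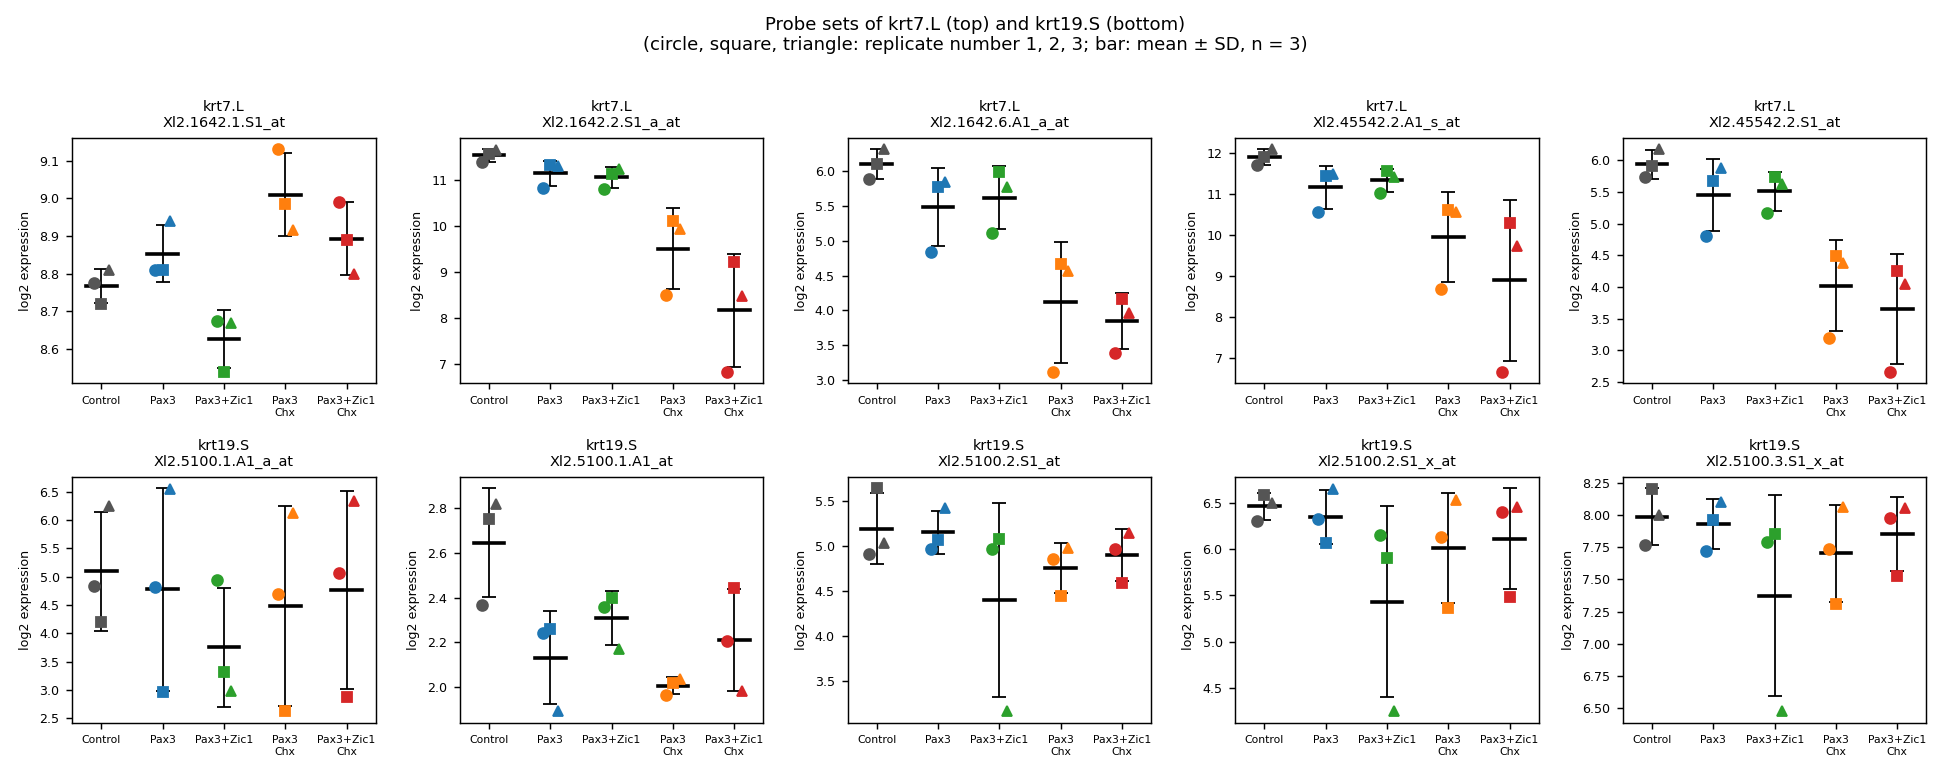
Log2 expression (vertical axis, with its own range in each panel) of the 5 probe sets of krt7.L (top) and the 5 of krt19.S (bottom) in the 5 groups; circles, squares and triangles are replicate numbers 1, 2 and 3, and bars are mean ± SD (n = 3). In the top row 4 panels step down in the drug-treated caps and 1 does not; in the bottom row the low triangle of the Pax3/Zic1 group is replicate 3.

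Of krt19, another type I keratin, the L copy passed neither fit. The 2 krt19.L probe sets read 7.21, 7.95 and 7.52 and 7.88, 8.29 and 7.97 in control caps. In Pax3/Zic1 Chx caps they read 7.45, 8.12 and 7.74 and 8.56, 8.50 and 8.48. Neither passed either fit in any comparison, and the second lay above control without overlap in Pax3/Zic1 Chx caps, by 0.47 ± 0.25 (adjusted p = 0.417, with the replicate number 0.183).

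In krt19.S the differences of Pax3/Zic1 caps from control shrank without replicate 3 of that group, by unlike amounts. In the fit without the replicate number, that of Xl2.5100.1.A1_at moved from -0.34 to -0.27 and that of Xl2.5100.1.A1_a_at from -1.34 to -0.96. Xl2.5100.1.A1_a_at, the member with the largest negative difference between Pax3/Zic1 and Pax3 caps, read 4.84, 4.20 and 6.25 in control caps, 4.81, 2.97 and 6.54 in Pax3 caps and 4.95, 3.33 and 2.99 in Pax3/Zic1 caps. Under cycloheximide, Xl2.5100.1.A1_a_at read 4.69, 2.62 and 6.13 in Pax3 Chx caps and 5.07, 2.88 and 6.33 in Pax3/Zic1 Chx caps. Replicate 3 was the highest sample of every group but Pax3/Zic1, where it was the lowest. Without that library the difference from Pax3 caps moved from -1.02 to -0.64, in a fit without the replicate number that kept Pax3 replicate 3 (6.54). Within numbers 1 and 2 the Pax3/Zic1 samples were above the Pax3 samples (4.95 against 4.81 and 3.33 against 2.97). The probe set Xl2.5100.3.S1_x_at read 7.77, 8.20 and 8.0005 in control caps and 7.79, 7.86 and 6.47 in Pax3/Zic1 caps, and its difference of -0.62 moved to -0.17 without Pax3/Zic1 replicate 3. No krt19.S probe set passed without the replicate number in the fit. With it, Xl2.5100.1.A1_at (1.89 to 2.82 over all samples), passed in Pax3 Chx caps (-0.64, adjusted p = 0.00993) and in Pax3/Zic1 Chx caps (-0.43, adjusted p = 0.0482).

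Among the keratins at the low end of the array, krt12.2.S was called. It read 1.88, 2.13 and 2.16 in control caps, 1.40, 1.77 and 1.80 in Pax3 caps and 1.48, 1.42 and 1.42 in Pax3/Zic1 caps. Under cycloheximide, krt12.2.S read 1.42, 1.62 and 1.50 in Pax3 Chx caps and 1.28, 1.54 and 1.48 in Pax3/Zic1 Chx caps. All injected samples were below the control samples. It fell by 0.62 ± 0.13 in Pax3/Zic1 Chx caps (adjusted p = 0.0177), a call that was lost without Pax3/Zic1 Chx replicates 1 or 3 or control replicates 2 or 3 (adjusted p up to 0.0742). With the replicate number in the fit it was also called in Pax3/Zic1 caps (-0.62, adjusted p = 0.00554, without it 0.0726) and in Pax3 Chx caps (-0.55, adjusted p = 0.00397, without it 0.0518).

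krt17.L (1.82 to 2.45 over all samples) fell by 0.45 in Pax3 Chx caps with the replicate number in the fit (adjusted p = 0.0129). krt17.S, the member with the largest positive difference in Pax3 caps, read 1.74, 1.90 and 1.79 in control caps and 1.67, 2.53 and 1.89 in Pax3 caps, and replicate 2 alone made up the difference of 0.23 (95% interval -0.20 to 0.65). The remaining keratin probe sets of this level, those of krt12.2.L, krt12.6 (both copies), krt15.1.S, krt15.2.L, krt50.S, krt51.L, krt55.L, krt57.L, krt61.L, krt62 (both copies), krt78.6.L and krt78.7.L, passed neither fit in any comparison.

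In the RefSeq annotation (assembly Xenopus_laevis_v10.1) the keratin genes stand in rows. The type I row of the L chromosome set has 21 keratin genes, 10 of them with a probe set here, and that of the S set has 16, with 9 measured. krt70 stands at the start of both and krt12.4 at position 11, with krt12.5 next to it. Within these rows krt70 and krt12.4 in both copies and krt12.5.S were called against control in drug-treated caps, as was the low krt12.2.S. The genes beside them differed in their values. krt17.L, next to krt70.L, was at -0.45 in Pax3 Chx caps, called with the replicate number alone, and krt12.2.L, close to krt12.4.L, was at -0.76 there and -0.80 in Pax3/Zic1 Chx caps and was not called. krt12.6, next to krt12.5, was at -0.21 on the S side and -0.11 on the L side in Pax3/Zic1 Chx caps. All of these stayed below a value of 3. krt19, at position 4 in both rows, was not called without the replicate number in the fit. The row of type II keratins holds 17 genes in the L set and 13 in the S set, opens with the type I gene krt18.1 beside krt8.1 and has krt7 near its other end. Here krt18.1.L, krt8.1.S and krt7.L fell, while krt78.6.L, krt78.7.L, krt61.L and krt62 of both copies, which lie between them, were below a value of 3 throughout.

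**Figure D4:**
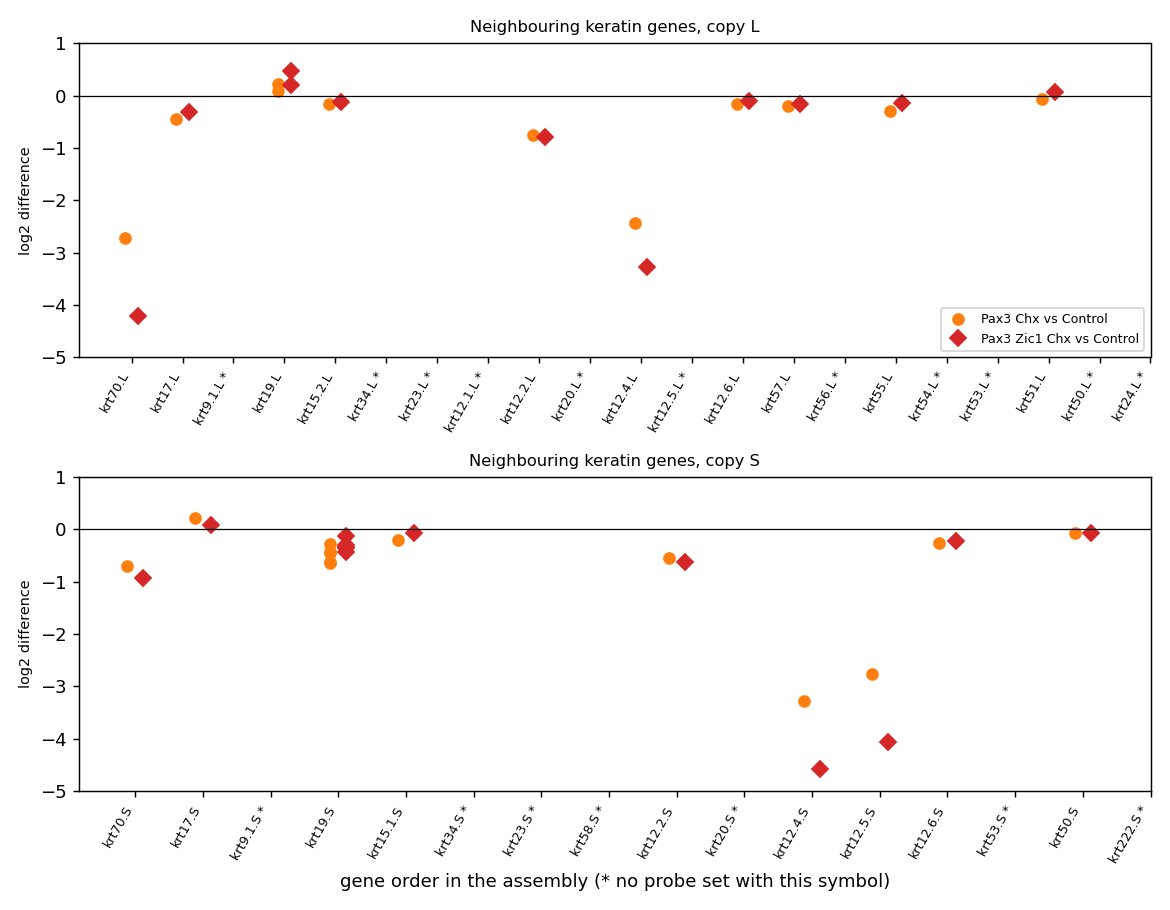
Log2 difference from control caps (vertical axis) of the measured type I keratin probe sets in gene order along the assembly (horizontal axis, not to scale; an asterisk marks a gene without a probe set), for Pax3 Chx caps (circles) and Pax3/Zic1 Chx caps (diamonds). The low points are krt70.L, krt12.4.L, krt12.4.S and krt12.5.S. The krt19.L points lie above 0, and the krt19.S points of Pax3 Chx caps at -0.29 to -0.64.

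Desmoplakin, the link between the desmosome and keratin, fell in drug-treated caps. In Pax3/Zic1 caps without the drug both copies were lower, dsp.S called in both fits and dsp.L only with the replicate number. dsp.S read 6.56, 6.49 and 6.85 in control caps, 5.66, 6.35 and 6.09 in Pax3 caps and 5.54, 5.06 and 5.73 in Pax3/Zic1 caps. Under cycloheximide, dsp.S read 5.46, 5.43 and 5.66 in Pax3 Chx caps and 4.84, 5.28 and 5.43 in Pax3/Zic1 Chx caps. Every injected sample was below the lowest control sample. The fall was 1.11 ± 0.22 in Pax3 Chx caps (adjusted p = 0.0188) and 1.45 ± 0.22 in Pax3/Zic1 Chx caps (2.73-fold, adjusted p = 0.00277). For the latter adjusted p stayed under 0.05 without any 1 of the 6 libraries of the comparison (highest 0.0157), while the former call was lost without control replicates 1 or 3 or Pax3 Chx replicates 1 or 2 (adjusted p up to 0.0927).

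dsp.S was also the 1 member called in Pax3/Zic1 caps without the drug, with a fall of 1.19 ± 0.22 (2.28-fold, adjusted p = 0.0377). The call was lost without Pax3/Zic1 replicates 2 or 3 or control replicates 1, 2 or 3 (adjusted p up to 0.171). Blocked by replicate number, the adjusted p was 0.00393. It was 0.0505 after quantile normalization, 0.0503 by limma with a trend and 0.223 with only the 2 groups in the fit, none of which passed. In Pax3 caps its difference was -0.60 ± 0.22 (adjusted p = 0.731, with the replicate number 0.160).

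dsp.L read 6.02, 5.90 and 6.82 in control caps, 5.06, 5.68 and 5.83 in Pax3 caps and 4.85, 4.43 and 5.26 in Pax3/Zic1 caps. Under cycloheximide, dsp.L read 4.63, 4.51 and 5.40 in Pax3 Chx caps and 3.78, 4.65 and 5.17 in Pax3/Zic1 Chx caps. As in dsp.S, no injected group overlapped the control caps. It fell by 1.72 ± 0.39 in Pax3/Zic1 Chx caps (adjusted p = 0.0253), a call that was lost without control replicates 1 or 3 or Pax3/Zic1 Chx replicates 1 or 2 (adjusted p up to 0.105). Its differences of -1.40 ± 0.39 in Pax3/Zic1 caps (adjusted p = 0.210) and -1.40 ± 0.39 in Pax3 Chx caps (adjusted p = 0.0922) passed only with the replicate number in the fit (adjusted p = 0.00434 and 0.00155). Without Pax3/Zic1 replicate 3 the first of these differences was -1.61, and -1.35 with the replicate number in that fit.

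Desmoplakin values with and without the drug overlapped. Between drug-treated and untreated Pax3/Zic1 caps dsp.S differed by -0.26 (95% interval -0.74 to 0.22) and dsp.L by -0.32 (-1.16 to 0.53), and between the Pax3 groups by -0.51 (-0.99 to -0.034) and -0.68 (-1.52 to 0.17). None of these passed either fit.

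**Figure D5:**
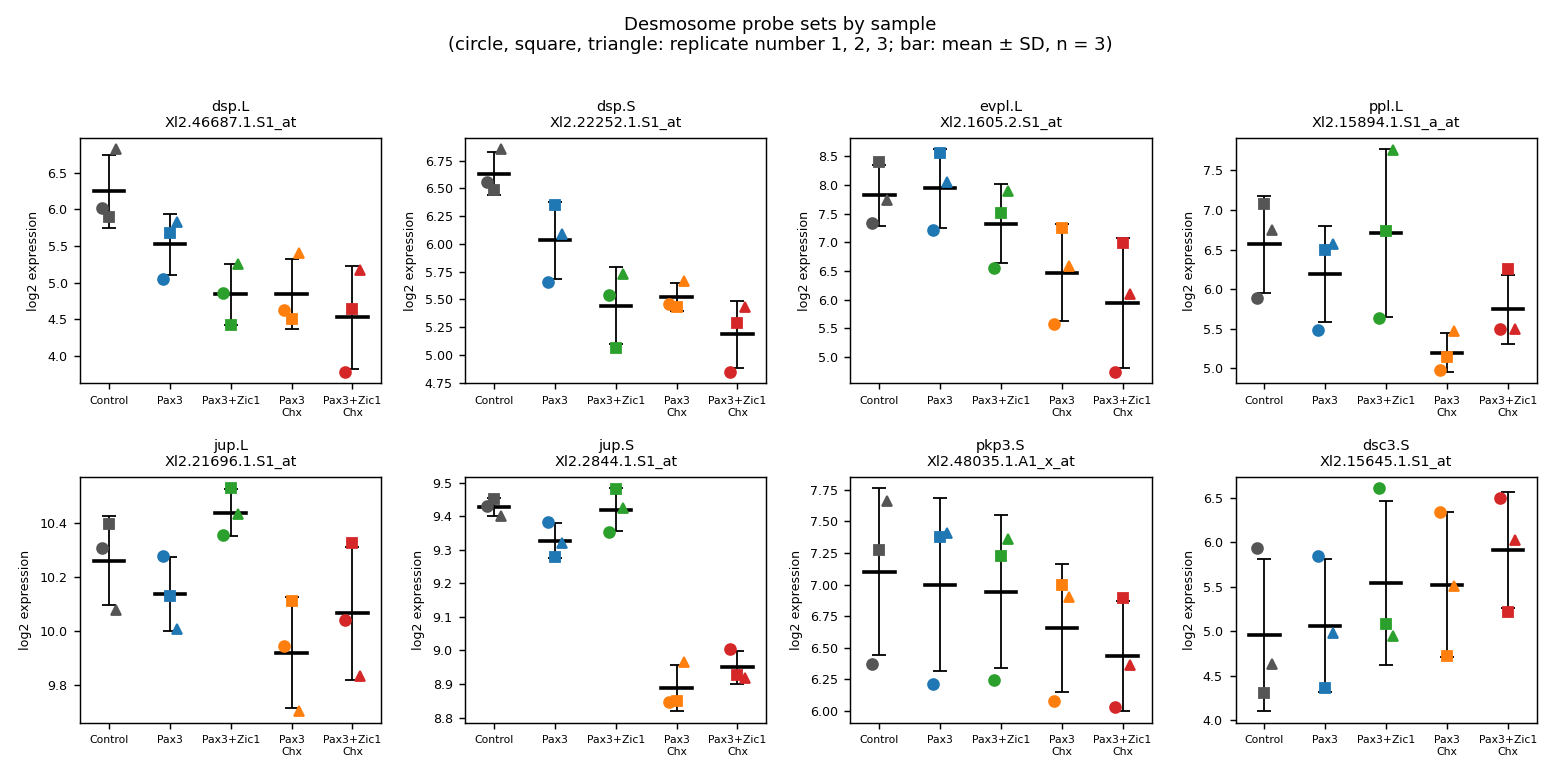
Log2 expression (vertical axis, with its own range in each panel) of 8 desmosome probe sets in the 5 groups; circles, squares and triangles are replicate numbers 1, 2 and 3, and bars are mean ± SD (n = 3). dsp.L and dsp.S are below control in every injected group, jup.S is lower in the 6 drug-treated samples than in the other 9, and dsc3.S is above its control in all 3 replicate numbers of the Pax3/Zic1 Chx group.

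Envoplakin and periplakin were lower in drug-treated caps, and passed only with the replicate number in the fit. evpl.L read 7.34, 8.39 and 7.74 in control caps, 7.21, 8.57 and 8.05 in Pax3 caps and 6.56, 7.52 and 7.90 in Pax3/Zic1 caps. Under cycloheximide, evpl.L read 5.57, 7.25 and 6.58 in Pax3 Chx caps and 4.73, 6.99 and 6.09 in Pax3/Zic1 Chx caps. Drug-treated caps were below all control samples, and replicate 1 was the lowest of every group. With the replicate number in the fit the fall from control was 1.35 ± 0.24 in Pax3 Chx caps (adjusted p = 0.00346) and 1.88 ± 0.24 in Pax3/Zic1 Chx caps (adjusted p = 0.000320). Without it, adjusted p was 0.369 and 0.117.

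ppl.L is read by 4 probe sets. Of these, Xl2.15894.1.S1_a_at read 5.88, 7.07 and 6.74 in control caps, 5.49, 6.50 and 6.57 in Pax3 caps and 5.64, 6.73 and 7.76 in Pax3/Zic1 caps. Under cycloheximide, Xl2.15894.1.S1_a_at read 4.98, 5.14 and 5.46 in Pax3 Chx caps and 5.50, 6.25 and 5.49 in Pax3/Zic1 Chx caps. The Pax3 Chx samples were below those of all other groups, while the Pax3/Zic1 Chx caps overlapped the control caps.

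Xl2.15894.1.S1_at read 3.93, 5.21 and 6.44 in control caps, 3.61, 5.82 and 6.01 in Pax3 caps and 3.85, 5.72 and 7.05 in Pax3/Zic1 caps. Under cycloheximide, Xl2.15894.1.S1_at read 2.60, 3.43 and 3.43 in Pax3 Chx caps and 3.15, 5.04 and 4.44 in Pax3/Zic1 Chx caps. Here too the Pax3 Chx caps were the low group, apart from control, and the Pax3/Zic1 Chx caps overlapped it. Blocked by replicate number, 3 of the 4 probe sets fell in Pax3 Chx caps, by 1.37 (adjusted p = 0.0150), 2.04 (0.00531) and 1.50 (0.0180). In Pax3/Zic1 Chx caps 1 did (Xl2.15894.2.S1_a_at, by 1.26, adjusted p = 0.0321). The last of the 4 stayed at 1.41 to 2.73 and passed neither fit.

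Plakoglobin, the armadillo protein that desmosomes share with adherens junctions, fell by a small and steady amount in its S copy. jup.S read 9.43, 9.45 and 9.40 in control caps, 9.38, 9.28 and 9.32 in Pax3 caps and 9.35, 9.48 and 9.42 in Pax3/Zic1 caps. Under cycloheximide, jup.S read 8.85, 8.85 and 8.97 in Pax3 Chx caps and 9.00, 8.93 and 8.92 in Pax3/Zic1 Chx caps. The 9 samples without the drug and the 6 with it did not overlap. The fall from control was 0.54 ± 0.088 in Pax3 Chx caps (1.45-fold, adjusted p = 0.00601) and 0.48 ± 0.088 in Pax3/Zic1 Chx caps (1.39-fold, adjusted p = 0.00795), and each call held without any 1 library (adjusted p at most 0.0328 and 0.0388). With only the 2 groups in the fit both were lost (0.0915 and 0.112).

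jup.L read 10.31, 10.40 and 10.08 in control caps, 10.28, 10.13 and 10.01 in Pax3 caps and 10.36, 10.53 and 10.43 in Pax3/Zic1 caps. Under cycloheximide, jup.L read 9.94, 10.11 and 9.70 in Pax3 Chx caps and 10.04, 10.33 and 9.83 in Pax3/Zic1 Chx caps. It overlapped the control caps in each group. Its differences from control of -0.34 (95% interval -0.67 to -0.0089) in Pax3 Chx caps and -0.19 (-0.53 to 0.14) in Pax3/Zic1 Chx caps passed neither fit.

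Of the plakophilins, which bind desmosomal cadherins and desmoplakin, pkp3.S was called with the replicate number in the fit and the others were not. pkp3.S (Xl2.2208.1.S1_at) read 5.32, 7.16 and 7.16 in control caps, 5.26, 7.38 and 6.95 in Pax3 caps and 4.71, 6.69 and 6.75 in Pax3/Zic1 caps. Under cycloheximide, pkp3.S read 4.48, 6.93 and 6.30 in Pax3 Chx caps and 4.06, 6.29 and 4.37 in Pax3/Zic1 Chx caps. Replicate 1 was well below the others in each group but the last, and the groups overlapped. With the replicate number in the fit it fell by 1.64 ± 0.31 in Pax3/Zic1 Chx caps (adjusted p = 0.00378, without it 0.405), and its second probe set by 0.67 (adjusted p = 0.0151). Whether it differs from the other plakophilins was not tested.

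The second pkp3.S probe set, Xl2.48035.1.A1_x_at, read 6.37, 7.27 and 7.66 in control caps, 6.21, 7.37 and 7.41 in Pax3 caps and 6.25, 7.23 and 7.36 in Pax3/Zic1 caps. Under cycloheximide, it read 6.08, 6.99 and 6.90 in Pax3 Chx caps and 6.03, 6.90 and 6.36 in Pax3/Zic1 Chx caps. Here too replicate 1 was the lowest of each group, and the groups overlapped.

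pkp3.L read 7.79, 7.86 and 8.13 in control caps, 7.99, 7.91 and 8.17 in Pax3 caps and 8.20, 8.05 and 8.32 in Pax3/Zic1 caps. Under cycloheximide, pkp3.L read 7.77, 7.78 and 7.93 in Pax3 Chx caps and 7.99, 8.04 and 7.999 in Pax3/Zic1 Chx caps, where it differed from control by 0.082 (95% interval -0.18 to 0.35). Each injected group overlapped the control caps.

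pkp2.L (Xl2.4420.1.S2_at) read 7.27, 7.12 and 7.86 in control caps, 7.14, 6.97 and 7.75 in Pax3 caps and 7.92, 7.38 and 6.995 in Pax3/Zic1 caps. Under cycloheximide, pkp2.L read 7.07, 6.86 and 7.56 in Pax3 Chx caps and 7.50, 7.20 and 7.83 in Pax3/Zic1 Chx caps, where it differed from control by 0.091 (-0.56 to 0.74). The drug-treated caps overlapped the control caps.

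pkp4.L read 7.06, 7.15 and 7.53 in control caps, 7.11, 7.21 and 7.53 in Pax3 caps, 7.30, 7.36 and 7.51 in Pax3/Zic1 caps, 7.19, 7.22 and 7.41 in Pax3 Chx caps and 7.07, 7.34 and 7.43 in Pax3/Zic1 Chx caps. pkp4.S read 5.64, 5.48 and 5.52 in control caps, 5.56, 5.51 and 5.73 in Pax3 caps, 5.75, 5.50 and 5.69 in Pax3/Zic1 caps, 5.39, 5.49 and 5.52 in Pax3 Chx caps and 5.40, 5.34 and 5.38 in Pax3/Zic1 Chx caps. pkp4.L overlapped across the groups, while pkp4.S was below control in Pax3/Zic1 Chx caps. None of the pkp2.L, pkp3.L or pkp4 probe sets passed either fit over all samples in any comparison. Without Pax3/Zic1 replicate 3, where pkp2.L (Xl2.4420.1.S2_at) was lowest, the fit with the replicate number called that probe set higher in Pax3/Zic1 than in Pax3 caps (0.56, adjusted p = 0.0405). It called the other pkp2.L probe set lower with the drug in Pax3/Zic1 caps (-0.46, adjusted p = 0.0268).

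The 1 desmosomal cadherin among probe sets with a single symbol, dsc3.S (desmocollin), was the only member called higher in either fit over all samples. It read 5.93, 4.30 and 4.64 in control caps, 5.84, 4.36 and 4.98 in Pax3 caps and 6.60, 5.08 and 4.94 in Pax3/Zic1 caps. Under cycloheximide, dsc3.S read 6.34, 4.72 and 5.51 in Pax3 Chx caps and 6.49, 5.21 and 6.02 in Pax3/Zic1 Chx caps. The groups overlapped, with replicate 1 the highest throughout, and within each of the 3 numbers the Pax3/Zic1 Chx sample was above the control. The difference was 0.95 ± 0.60 in Pax3/Zic1 Chx caps (adjusted p = 0.515), and with the replicate number in the fit it rose (adjusted p = 0.00471). Its differences in Pax3/Zic1 caps (0.59) and Pax3 Chx caps (0.57) were the largest positive ones of any member there and passed neither fit (adjusted p with the number 0.122 and 0.0670). Without Pax3/Zic1 replicate 3, dsc3.S passed with the number in Pax3/Zic1 caps against control (0.85, adjusted p = 0.0123) and against Pax3 caps (0.74, adjusted p = 0.0476).

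Caps with and without cycloheximide were compared within injected caps, where both sides carry the same constructs and hormone. A drug effect of its own cannot be told apart here from a changed response to the active factors. In Pax3 caps limma called 4 members lower with the drug, the 3 probe sets of krt8.1.S and jup.S, while 0.366% of all probe sets were called lower and 0.87% in either direction. In Pax3/Zic1 caps it called 8 lower, those of krt12.4.L, krt12.5.S, krt70.L, 1 krt7.L probe set and again the 3 of krt8.1.S and jup.S, against 0.747% lower and 1.59% either way over the array. These comparisons share no sample, but 1 model tested both with the same estimate of spread for each probe set. Blocked by replicate number, limma called 16 and 18 members lower and none higher, from backgrounds of 5.02% and 8.45% (10.5% and 16.4% either way). Of those, 15 probe sets were called in both, 93.8% of the first list and 83.3% of the second. The overlap over all probe sets was not counted, so whether the members stand out in it cannot be told.

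The median difference with the drug was -0.22 over the members in Pax3 caps and -0.19 in Pax3/Zic1 caps, and -0.03 and -0.04 over all probe sets. The groups were apart with the drug-treated caps lower for 17 and 20 members (9.98% and 9.41% of all probe sets), and higher for 0 and 3 (6.57% and 5.96%). The largest positive differences were those of dsc3.S in Pax3 caps (0.46) and of krt19.S in Pax3/Zic1 caps (1.00), neither past a test. The latter was 0.62 without Pax3/Zic1 replicate 3, in a fit without the replicate number that kept replicate 3 of the drug-treated caps.

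By gene, krt70.L fell by 3.72 ± 0.77 in Pax3/Zic1 caps (13.2-fold, adjusted p = 0.0326). krt12.5.S fell by 2.84 ± 0.58 (adjusted p = 0.0309), krt12.4.L by 2.44 ± 0.50 (adjusted p = 0.0300) and krt7.L (Xl2.1642.2.S1_a_at) by 2.89 ± 0.52 (adjusted p = 0.0176). With only the 2 groups in the fit no call between drug-treated and untreated caps passed. With the replicate number in the fit and without Pax3/Zic1 replicate 3, limma called these 4 probe sets lower. The adjusted p was then 0.0035 for krt70.L, 0.0033 for krt12.5.S, 0.0020 for krt12.4.L and 0.0023 for krt7.L. In the fit of all groups without the number, each of the 4 calls was kept without some libraries and lost without others. That of krt70.L was lost without Pax3/Zic1 Chx replicates 1 or 3 or Pax3/Zic1 replicates 2 or 3 (adjusted p up to 0.132), that of krt12.5.S was lost without Pax3/Zic1 Chx replicates 1 or 3 or Pax3/Zic1 replicates 2 or 3 (adjusted p up to 0.114), that of krt12.4.L was lost without Pax3/Zic1 replicates 2 or 3 or Pax3/Zic1 Chx replicates 1 or 3 (adjusted p up to 0.132) and that of krt7.L was lost without Pax3/Zic1 Chx replicate 3 or Pax3/Zic1 replicates 2 or 3 (adjusted p up to 0.0752).

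krt8.1.S (Xl2.45542.1.S1_at) fell by 0.98 ± 0.17 in Pax3 caps (adjusted p = 0.0193) and by 1.11 in Pax3/Zic1 caps (adjusted p = 0.00762). The first call was lost without Pax3 replicates 2 or 3 or Pax3 Chx replicates 1 or 3 (adjusted p up to 0.0886), and for the second adjusted p stayed under 0.05 without any 1 of the 6 libraries of the comparison (highest 0.0398). jup.S fell by 0.44 ± 0.088 (adjusted p = 0.0378) and 0.47 (adjusted p = 0.0202). Of these, the call in Pax3 caps was lost without Pax3 Chx replicates 1, 2 or 3 or Pax3 replicates 1, 2 or 3 (adjusted p up to 0.155), and that in Pax3/Zic1 caps was lost without Pax3/Zic1 replicates 2 or 3 or Pax3/Zic1 Chx replicates 2 or 3 (adjusted p up to 0.0917). For krt8.1.S read by Xl2.4511.1.A1_s_at the call in Pax3 caps (-1.005, adjusted p = 0.0257) was lost without Pax3 replicates 2 or 3 or Pax3 Chx replicates 1 or 3 (adjusted p up to 0.115). Read by Xl2.4511.1.A1_x_at, the call in Pax3 caps (-0.71, adjusted p = 0.0356) was lost without Pax3 replicates 1, 2 or 3 or Pax3 Chx replicates 1, 2 or 3 (adjusted p up to 0.163), and that in Pax3/Zic1 caps (-0.77, adjusted p = 0.0169) was lost without Pax3/Zic1 replicates 2 or 3 or Pax3/Zic1 Chx replicates 1 or 3 (adjusted p up to 0.0725).

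In Pax3 caps the epidermal keratins passed with the replicate number in the fit alone. krt12.4.L fell by 1.63 ± 0.28 (adjusted p = 0.00492), krt12.4.S by 1.73 (0.0224), krt12.5.S by 1.62 (0.0220) and krt70.L by 2.03 (0.0212). krt18.1.L fell in both, by 0.93 (0.00408) in Pax3 caps and 0.80 (0.00578) in Pax3/Zic1 caps. Leaving out Pax3/Zic1 replicate 3 moved the latter to -1.06, with an adjusted p of 0.0219 without the number in the fit, and to -1.003 with it. evpl.L fell by 1.47 (0.00417) and 1.39 (0.00396), and jup.L by 0.37 in Pax3/Zic1 caps (0.0343), all with the number.

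Adding Zic1 to Pax3 gave no call among the members. Without the drug, limma called 0 of 57 (0.0184% of all probe sets), with 2 at an unadjusted p under 0.05, and 0 with the replicate number in the fit (1.12%). With the drug it called 0 (0.0338%), again with 2 at an unadjusted p under 0.05, and 0 with the number (0.744%). In the fit with the number, 7 members (5 lower and 2 higher) had an unadjusted p under 0.05 without the drug. With the drug 9 did (7 lower and 2 higher). The median difference was 0.01 and 0.03, and the groups were apart for 1 member lower and 1 higher without the drug (3.26% and 4.34% of all probe sets) and for 1 lower and 4 higher with it (2.81% and 3.15%).

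For krt8.1.S (Xl2.45542.1.S1_at) the Zic1 difference was 0.12 (95% interval -0.25 to 0.49) without the drug and -0.0080 (-0.38 to 0.36) with it, and for jup.S 0.092 (-0.10 to 0.28) without it. For krt12.4.L it was -0.024 (-1.10 to 1.05) and -0.84 (-1.92 to 0.24). In krt70.L with the drug, the largest negative difference there, it was -1.48 (-3.15 to 0.19). These intervals are from the fit without the replicate number, so variation shared by a number widens them. They are wide for the epidermal keratins and narrow for krt8.1.S and jup.S. Under the drug, krt12.4.L and krt70.L were lower with Zic1 within each number, and neither was called in either fit.

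For dsp.S the difference between Pax3/Zic1 and Pax3 caps was -0.59 (-1.07 to -0.11, adjusted p = 0.860, with the replicate number 0.167). It was lower in 3 of 3 replicate numbers. The largest positive differences on adding Zic1 were those of ppl.L, 0.52 (Xl2.15894.1.S1_a_at, 95% interval -0.54 to 1.58) without the drug and 1.06 (Xl2.15894.1.S1_at, -0.87 to 2.98) with it.

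Whether the drug's effect differs with Zic1 was tested as an interaction, and limma called 0 of 57 members and 0% of the array, with or without the replicate number. None of the members had an unadjusted p under 0.05 without the number and 3 had with it, all lower. The lowest interaction value was that of krt70.L, -1.69 (95% interval -4.05 to 0.67), and the highest that of krt19.S (Xl2.5100.1.A1_a_at), 1.299 (-2.17 to 4.77). Without Pax3/Zic1 replicate 3 that of krt19.S was 0.92, with replicate 3 of the other groups kept and no replicate number in the fit.

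Replicates of 1 number shared their keratin level. Among the 14 keratin probe sets called without the number in the fit, replicate 1 was the lowest sample in 13 in control caps, in 13 in Pax3 caps and in 11 of each other group, and replicate 2 was the highest in all 14 in Pax3/Zic1 Chx caps. The average of the epidermis markers was ordered the same way there (7.05, 7.94 and 7.61), but this order was not particular to them. Neural crest (4.47, 5.83 and 5.18), neural plate (5.82, 6.36 and 5.91) and cement gland averages (4.21, 4.73 and 4.46) had it too. Mesoderm, endoderm and notochord averages of that group were highest in replicate 3. In Pax3/Zic1 caps without the drug the epidermis average was ordered otherwise (7.44, 7.51 and 7.26). The labels do not say what the number stands for.

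Lists of related genes, each gene read by its probe set with the highest mean, were read beside the members. Of 16 measured genes of adherens junctions and catenins, limma called 0 in any comparison, with 3 at an unadjusted p under 0.05 in Pax3/Zic1 Chx caps against control. With the replicate number in the fit cdh1.S was called in drug-treated caps (adjusted p = 0.000127 in Pax3/Zic1 Chx caps against control). Its difference there was -1.61 ± 0.43 in the fit without the number (adjusted p = 0.0537). In the same comparison and fit vcl.S (vinculin) fell by 0.40 (adjusted p = 0.0249, without the number 0.334) and afdn.L (afadin) rose by 0.61 (adjusted p = 0.0490, without it 0.245). Of 6 genes of hemidesmosomes and the basal lamina limma called 0 in any comparison without the number, and 0 had an unadjusted p under 0.05. With it itga6.L, an integrin of the basal cell surface, fell by 0.46 in Pax3 Chx caps (adjusted p = 0.0261, without the number 0.786). A list named for the cornified envelope had 6 measured genes, dstyk.S, perp.S and both copies of tgm2 and tmem45b. Its envelope genes tgm1, tgm3, tgm5, ivl and lor were not measured. Of the 6, tmem45b.L fell by 1.45 ± 0.23 in Pax3/Zic1 Chx caps (adjusted p = 0.00311). perp.S, a desmosome-associated membrane protein in mammals, had -0.56 there (adjusted p = 0.196, with the number 0.00284). With the number in the fit dstyk.S rose by 0.90 there (adjusted p = 0.000762, without it 0.0737) and tgm2.L, a transglutaminase, fell by 0.53 (adjusted p = 0.0422, without it 0.242). Of 17 genes of other intermediate filaments and lamins limma called 0 without the number, with 3 at an unadjusted p under 0.05 in Pax3/Zic1 Chx caps against control. With it vim.L (vimentin, the mesenchymal filament) fell by 0.81 in Pax3/Zic1 Chx caps (adjusted p = 0.00360, without the number 0.259). prph.S (peripherin, a neuronal filament) fell by 1.52 (adjusted p = 0.000535, without it 0.233), and lmnb3.L, a lamin, rose by 0.68 (adjusted p = 0.0318, without it 0.407). The median differences in that comparison were -0.10 for the adherens list, 0.056 for hemidesmosomes, -0.33 for the cornified list and -0.064 for the other filaments, against -0.03 over all probe sets. With the number in the fit, 9.15% of all probe sets were called higher there and 9.78% lower. That fit called 1 higher and 2 lower of the 16 adherens genes, and the same of the 17 filament genes. These counts are at about the rate of the whole array. Of the 6 genes of the cornified list it called 1 higher and 3 lower. In Pax3 Chx caps it called 6.99% of all probe sets lower.

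Among 21 measured regulators of epidermal genes, 5 rose and 2 fell in Pax3/Zic1 Chx caps against control (2.21% and 2.35% of all probe sets). Of those that rose only foxi1.L is also in the epidermis list, and the others were among hes1, msx1, msx2 and znf750. dlx3.L and dlx3.S, homeobox regulators of the epidermis, fell by 2.33 ± 0.52 (adjusted p = 0.0232) and 1.96 ± 0.44 (0.0232). foxi1.L, a forkhead factor of the ectoderm, rose by 1.86 ± 0.21 (adjusted p = 0.000434). With the drug, 5 of the 21 rose in Pax3/Zic1 caps and none fell (0.842% and 0.747% of all probe sets), foxi1.L rising by 2.92 ± 0.21 (adjusted p = 4.21e-05). Again the others that rose were among hes1, msx1, msx2 and znf750. In Pax3/Zic1 caps without the drug foxi1.L fell by 1.07 (adjusted p = 0.0478).

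Markers of other tissues also differed between groups, not always the groups in which keratins were called, and their part in the result was not tested. The averaged log2 level over 10 measured neural crest genes was 2.88 to 3.49 in control caps and 4.47 to 5.83 in Pax3/Zic1 Chx caps, where 5 rose. Over 16 neural plate genes it was 4.86 to 5.20 and 5.82 to 6.36, with 7 higher and 1 lower. Over 12 endoderm genes it was 2.70 to 3.50 and 3.87 to 5.67, with 6 higher, and over 14 mesoderm genes 2.54 to 3.53 and 3.13 to 5.22, which overlap, with 3 higher. Notochord genes overlapped too, at 4.43 to 5.78 and 4.98 to 7.25, with 1 higher. Over 7 genes of the cement gland, a mucus-secreting organ of the head ectoderm, it was 6.14 to 6.40 in control caps and 4.21 to 4.73, with 3 lower. In Pax3 Chx caps 5 neural plate, 2 crest, 3 endoderm, 1 mesoderm and 1 notochord gene rose and 3 cement gland genes fell. Of all probe sets, 1.28% were called higher and 1.24% lower in Pax3 Chx caps, and 2.21% higher and 2.35% lower in Pax3/Zic1 Chx caps. In Pax3 caps without the drug the crest (3.50 to 4.40) and neural plate (5.40 to 5.64) averages were already above control without overlap. In Pax3/Zic1 caps the crest average was as well (4.00 to 4.75), while that of the neural plate (5.08 to 5.54) overlapped control. The highest mesoderm, endoderm and notochord averages were in replicate 3 of the Pax3/Zic1 Chx caps. Those of neural crest (5.83) and neural plate (6.36) were in replicate 2 of that group, which was also its highest sample in the 14 called keratin probe sets. In the epidermis list itself, 4 of 20 fell in that comparison and 1 rose, itln1.L falling by 4.72 ± 1.00 (adjusted p = 0.0177) and esrp1.L, an epithelial splicing regulator, by 1.07 ± 0.16 (adjusted p = 0.00283).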

How the data were processed

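Total RNA of 16 arrays (15 biological samples) was hybridised to Affymetrix Xenopus laevis arrays. The authors deposited a single file of processed values per probe set. Its values were taken as log2 expression from their range (array means 4.96 to 4.99, SDs 2.42 to 2.49), and the deposited file does not state the log base. The background, normalization and summary steps were not stated in the labels or the file header, and so are not given here. R 2.14.2 is named per the submitters' processing notes. The number of arrays limits the precision.

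Of 32635 probe sets, 96 Affymetrix controls were left out. Genes come from the platform annotation (15495 probe sets with 1 symbol, 279 with several, 16765 with none), and 2 probe sets with several symbols that include a member name were left out. All 57 members were found in the RefSeq gene list by gene identifier, and no symbol changed. Gene order was read from the same source, keratin genes with at most 2 other protein-coding genes between them forming a row. Arrays 2.1 and 2.2 of the Pax3/Zic1 group carry 1 biological replicate number and were averaged. The SD of their difference was 0.183, while that of any pair of biological replicates in 1 group was 0.517 to 0.759.

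limma 3.58.1 in R 4.3.3 (with data.table, version 1.17.8) fitted all 5 groups in 1 linear model with moderated variances (10 residual and 2.17 prior degrees of freedom). Tests were two-sided, with Benjamini-Hochberg adjustment over 32539 probe sets and a threshold of 0.05. Errors beside differences are standard errors of that fit. Those given for krt18.3.L, evpl.L and pkp3.S, and for krt12.4.L between Pax3 Chx and Pax3 caps, are from the fit with the replicate number. Intervals are 95% intervals without adjustment. The replicate numbers pair the samples, from the data and not from a statement in the labels. All 30 pairs of deviations from group means within a number correlated (r 0.43 to 0.86, median 0.73), the highest r between numbers was -0.096, and 15 of 15 samples correlated best with their own number. The deviations of a group sum to 0, which pulls r between numbers below 0, so that value is no separate evidence of pairing. Over the members alone the lowest r within a number was -0.17 and the median 0.64. The fit with the number as a block had 8 residual and 3.40 prior degrees of freedom.

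Alternatives were the replicate block, quantile normalization, probe sets at or above the median mean, limma with a trend, the groups of a comparison alone, either of the averaged arrays alone, and each library left out. The block together with leaving out Pax3/Zic1 replicate 3 was chosen after seeing the data. Values in every sample are given for members called in any comparison, members called with the block in at least 3, the largest rise and fall of each comparison, and the probe set with the highest mean of each desmosome gene. The members and lists were chosen with earlier results of these data known. The fit was tested on simulated data before use.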

Additional observations from a re-analysis of the deposited data

How the results depend on the processing

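With the replicate block limma called 2 members in Pax3 caps against control (0 without it), 5 in Pax3/Zic1 caps (1), 25 in Pax3 Chx caps (10), 16 with the drug in Pax3 caps (4) and 18 with the drug in Pax3/Zic1 caps (8). The block moved no other count of calls by over 1.5 times. With only the groups of a comparison in the fit, the count was 0 in Pax3/Zic1 caps and 5 in Pax3/Zic1 Chx caps against control. It was 0 for the drug in Pax3 caps and 0 in Pax3/Zic1 caps. That fit has fewer samples and called 11, 617, 0 and 20 of all probe sets in that order. Quantile normalization gave 0 in Pax3/Zic1 caps (149 of all probe sets), and limma with a trend called 1 member there (167 of all probe sets) that is not dsp.S. The cause was not tested. With the replicate block and without Pax3/Zic1 replicate 3, the counts were 4 in Pax3/Zic1 caps against control (1 higher and 3 lower), 2 against Pax3 caps (pkp2.L and dsc3.S, both higher, from 0) and 16 for the drug in Pax3/Zic1 caps. That fit called 977, 263 and 3859 of the 32539 probe sets in that order.

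Leaving out 1 library at a time gave 0 to 0 calls in Pax3 caps against control, 0 to 1 in Pax3/Zic1 caps, 4 to 7 in Pax3 Chx caps (4 without Pax3 Chx replicate 1) and 13 to 16 in Pax3/Zic1 Chx caps. Over all probe sets these fits called 17 to 49, 36 to 376, 396 to 539 and 893 to 1097. The drug gave 0 to 2 in Pax3 caps and 2 to 10 in Pax3/Zic1 caps (2 without Pax3/Zic1 replicate 2 or Pax3/Zic1 Chx replicate 3, 10 without Pax3/Zic1 replicate 1). Over all probe sets it gave 89 to 167 and 201 to 1308. Adding Zic1, with or without the drug, and the interaction gave 0 to 0. Over all probe sets, adding Zic1 gave 0 to 68 without the drug and 4 to 47 with it, and the interaction gave 0. No called value changed sign under any alternative run. With 3 samples per group, differences of probe sets that vary widely between replicate numbers have wide intervals, and low probe sets have no measure of detection here.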
